A study of Danio rerio with 8 samples.

Results

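The genes described here act in mitosis, in the assembly of the spindle and in cytokinesis. They are 49 zebrafish genes chosen by name, with earlier results of these data known. A gene was counted as measured where the platform annotation gives its symbol to a probe set of the Affymetrix zebrafish array. Of the 49, 40 were measured, by 63 probe sets, among 8793 named genes on the array. The genes cks2, bub1, ube2c, cenpf, spc25, aurkb, tpx2, stmn1a and ncapd2 had no probe set under these symbols and were not analysed here. RNA came from zebrafish heart ventricles taken 2 weeks after surgery, in 4 pools from animals with a resected ventricle and 4 pools from control animals, each pool holding 50 ventricles. Strain, age and the operation of the control animals are not given in the sources used here, and a pool hides the spread between its animals. Levels are given as log2 RMA expression. Changes are differences between group means on that scale, resected minus control, each with its standard error (SE) from limma, and a gene is said to have risen or fallen where its Benjamini-Hochberg adjusted p over all probe sets was under 0.05.

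The adult zebrafish heart regrows muscle after part of the ventricle is cut away, in part through division of the remaining heart muscle cells, and other cells of the wound also divide. Entry into mitosis depends on the kinase Cdk1 bound to a cyclin. Condensin and topoisomerase II shape the chromosomes, kinetochores attach them to the spindle, the spindle checkpoint delays their separation until all are attached, and a contractile ring then splits the cell. In a whole ventricle these transcripts come from any dividing cell, and more dividing cells and more RNA per cell cannot be told apart. Of the heart muscle markers, myl7 stood at 13.99 in resected and 14.04 in control ventricles, and cmlc1 at 13.47 in resected and 13.52 in control ventricles, on arrays whose medians lay between 5.78 and 5.82. The highest value on the arrays was 14.64. Heart muscle markers were not all level: myh7 rose by 0.83 ± 0.11 and actn2b by 0.85 ± 0.10 (limma adjusted p = 0.00182 and 0.000929). Of the 9 measured, 7 lay under 0 without passing. For 2 of these, tnnt2a (-0.17 ± 0.08) and atp2a2a (-0.13 ± 0.08), all resected values lay below all control values, as for 7.93% of all genes.

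Of the 40 measured mitosis genes, 10 rose in resected ventricles and 0 fell, against 5.05% of all genes that rose and 3.0% that fell (limma). The 10 were cdk1, ccna2 and plk1 of mitotic entry, the checkpoint gene mad2l1, birc5a and incenp of the chromosomal passenger complex, the cytokinesis scaffold anln, the condensin genes smc4 and ncapg, and the lamin gene lmnb1. Their changes lay between 0.44 and 1.27, or 1.36-fold and 2.41-fold, and cdk1 was the 1 gene of the 10 above 2-fold. The other 30 lay between -0.15 and 0.46, with 20 above and 10 below 0, and 9 of them had an unadjusted p under 0.05, all higher. At that unadjusted limit 19 of the 40 were higher and 0 lower, against 12.7% of all genes in each direction. The median change over the 40 was 0.19, beside -0.04 over all genes. The 4 resected values stood above all 4 control values for 11 of the 40 genes, against 7.74% of all genes, and below them for 0, against 7.93%. These genes and the lists set beside them later were chosen with earlier results of these data known. The comparisons with all genes are therefore descriptions and not tests. The count of genes called was 6, 15, 5 and 6 without control replicates 1, 2, 3 and 4. It was 5, 4, 6 and 5 without resected replicates 1, 2, 3 and 4. Leaving out an array also changed the count over all probe sets, for which the last section gives only a range. How far these counts moved with that count was not tested. Without control replicate 2, 7.37% of all genes rose and 4.95% fell.

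**Figure D1:**
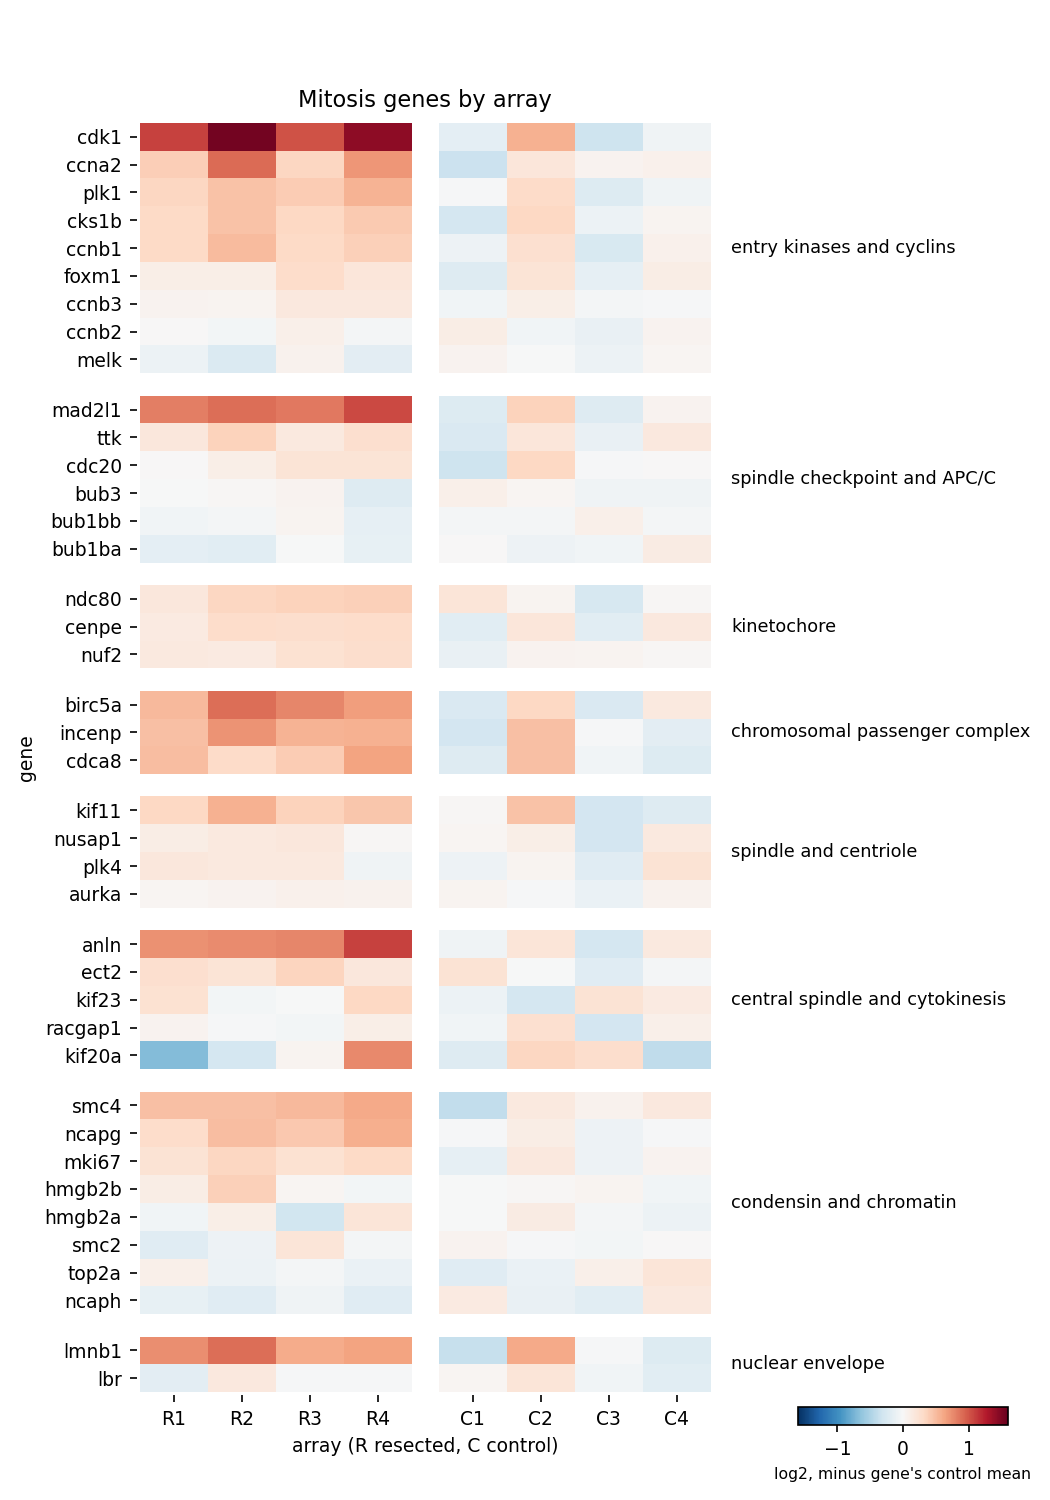
Each row is 1 of the 40 measured genes, grouped by role, and each column is 1 array, resected (R1 to R4) left of control (C1 to C4). Colour gives the log2 value minus that gene's mean over the 4 control arrays, and the strongest reds are cdk1 in resected replicates 2 and 4, at 6.5 and 6.39 against a control mean of 4.96.

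Mitotic entry gave the largest change. The kinase gene cdk1 was at 6.06, 6.5, 5.98 and 6.39 in resected ventricles, against 4.80, 5.53, 4.62 and 4.89 in control ventricles. All resected values lay above all control values, of which replicate 2 was the highest. The gene rose by 1.27 ± 0.19 (SE, n = 4 per group), or 2.41-fold, with an adjusted p = 0.00356 in limma.

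The cyclins did not all pass. Transcripts of ccna2, whose cyclin A acts in DNA replication and at the start of mitosis, were at 5.33, 5.84, 5.28 and 5.64 in resected ventricles and at 4.59, 5.13, 5.0 and 5.02 in control ventricles. The groups did not overlap, and ccna2 rose by 0.59 ± 0.15 (limma adjusted p = 0.0434). The call held without control replicate 2 or resected replicate 3, and was lost when any other array was left out (adjusted p = 0.0552 to 0.121). For ccnb1, a B-type cyclin that activates Cdk1, the values were 5.99, 6.17, 5.99 and 6.05 in resected ventricles and 5.58, 5.92, 5.41 and 5.74 in control ventricles. They did not overlap either, but the change of 0.38 ± 0.11 did not pass (adjusted p = 0.069, limma) and passed without control replicate 2 (0.47, adjusted p = 0.0201). The second B-type cyclin gene, ccnb2, averaged 5.20 ± 0.07 in resected and 5.19 ± 0.11 in control ventricles (SD, n = 4), with a 95% interval of the difference between -0.17 and 0.19. The brightest of the 4 probe sets of ccnb3, a further cyclin gene of this family, gave 0.11 ± 0.08, and the other 3 gave 0.10 to 0.18, none of them past the threshold.

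Among the other regulators of entry, the kinase gene plk1 was at 6.18, 6.29, 6.23 and 6.39 in resected ventricles, against 5.81, 6.13, 5.61 and 5.76 in control ventricles. The groups did not overlap, with control replicate 2 nearest to the resected values. It rose by 0.44 ± 0.11 (limma adjusted p = 0.0428), a call that was lost on leaving out any array other than control replicate 2 (0.0698 to 0.113 as adjusted p). The gene cks1b encodes a small protein that binds cyclin-dependent kinases, and it stood at 5.84 ± 0.07 in resected and 5.45 ± 0.26 in control ventricles (SD, n = 4). Its highest control value, 5.78 in replicate 2, overlapped the resected values, and the change of 0.39 ± 0.12 did not pass (adjusted p = 0.0843), but passed without that array (0.50, adjusted p = 0.0138). The transcription factor gene foxm1, which drives many mitotic genes in mammals, was at 0.18 ± 0.11, and the kinase gene melk at -0.11 ± 0.09, neither past the threshold (adjusted p = 0.358 and 0.494, limma).

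The spindle checkpoint gene mad2l1 had the smallest adjusted p of all 40. Its product holds back the anaphase-promoting complex by binding Cdc20. Resected ventricles had 6.24, 6.31, 6.26 and 6.48, against 5.21, 5.79, 5.22 and 5.47 in control ventricles, without overlap. The rise was 0.90 ± 0.13, or 1.87-fold (limma adjusted p = 0.00288). None of the 5 other measured genes of the checkpoint and of the anaphase-promoting complex passed. The checkpoint kinase gene ttk encodes Mps1, which is known to be needed for regeneration of the zebrafish heart and fin. It was at 5.84, 6.03, 5.82 and 5.94 in resected ventricles and at 5.42, 5.86, 5.54 and 5.83 in control ventricles. The groups overlapped through control replicates 2 and 4, and the change was 0.24 ± 0.11 (adjusted p = 0.222, limma). The activator of the anaphase-promoting complex, cdc20, was at 0.14 ± 0.13. By their brightest probe sets the checkpoint genes bub3, bub1bb and bub1ba lay at -0.035 ± 0.085, -0.047 ± 0.077 and -0.12 ± 0.08. The 95% intervals of these 3 probe sets ran from -0.30 to 0.15 in all. A dimmer probe set of bub3 gave 0.14 ± 0.09, with a 95% interval of -0.06 to 0.33 (adjusted p = 0.383, limma).

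All 3 measured kinetochore genes lay above 0, each with an unadjusted p under 0.05, and none passed in limma. They encode the microtubule-binding subunits Ndc80 and Nuf2, partners in 1 complex, and the motor Cenp-E. For ndc80 the values were 4.29, 4.46, 4.48 and 4.49 in resected ventricles and 4.32, 4.15, 3.85 and 4.13 in control ventricles. Resected replicate 1 fell inside the control range, and the change was 0.32 ± 0.11 (adjusted p = 0.103, limma). For nuf2 the groups did not overlap (lowest resected value 4.07, highest control value 3.97), with a change of 0.21 ± 0.08 (adjusted p = 0.139). The change of cenpe was 0.25 ± 0.11 (adjusted p = 0.197).

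The chromosomal passenger complex carries the kinase Aurora B to centromeres and later to the middle of the spindle. The kinase gene itself was not among the measured genes, and 2 of the 3 measured partners rose. The survivin gene birc5a was at 6.26, 6.65, 6.54 and 6.42 in resected ventricles, against 5.51, 6.08, 5.51 and 5.91 in control ventricles, and the groups did not overlap. It rose by 0.72 ± 0.14, or 1.64-fold (limma adjusted p = 0.0149), and the call ended without resected replicate 2 (0.66, adjusted p = 0.0558). The scaffold gene incenp was at 5.87, 6.10, 5.94 and 5.97 in resected ventricles and at 5.09, 5.88, 5.37 and 5.23 in control ventricles. Control replicate 2 reached the lowest resected value, and the other 3 control values lay below. By this probe set incenp rose by 0.58 ± 0.15 (limma adjusted p = 0.0468). Its dimmer probe set gave -0.15 ± 0.09, and the mean of both gave 0.22 (adjusted p = 0.137). The call was also lost on leaving out any array other than control replicate 2 (0.0789 to 0.135 as adjusted p) and, with 0.59 and 0.58, under a further quantile normalization (adjusted p = 0.0525) or median centring (0.0529). The borealin gene cdca8 stood at 6.01, 5.82, 5.93 and 6.17 in resected ventricles and at 5.31, 6.0, 5.46 and 5.30 in control ventricles. Control replicate 2 again lay among the resected values. The change of 0.46 ± 0.15 did not pass (adjusted p = 0.0997, limma) and passed without that array (0.62, adjusted p = 0.00561).

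**Figure D2:**
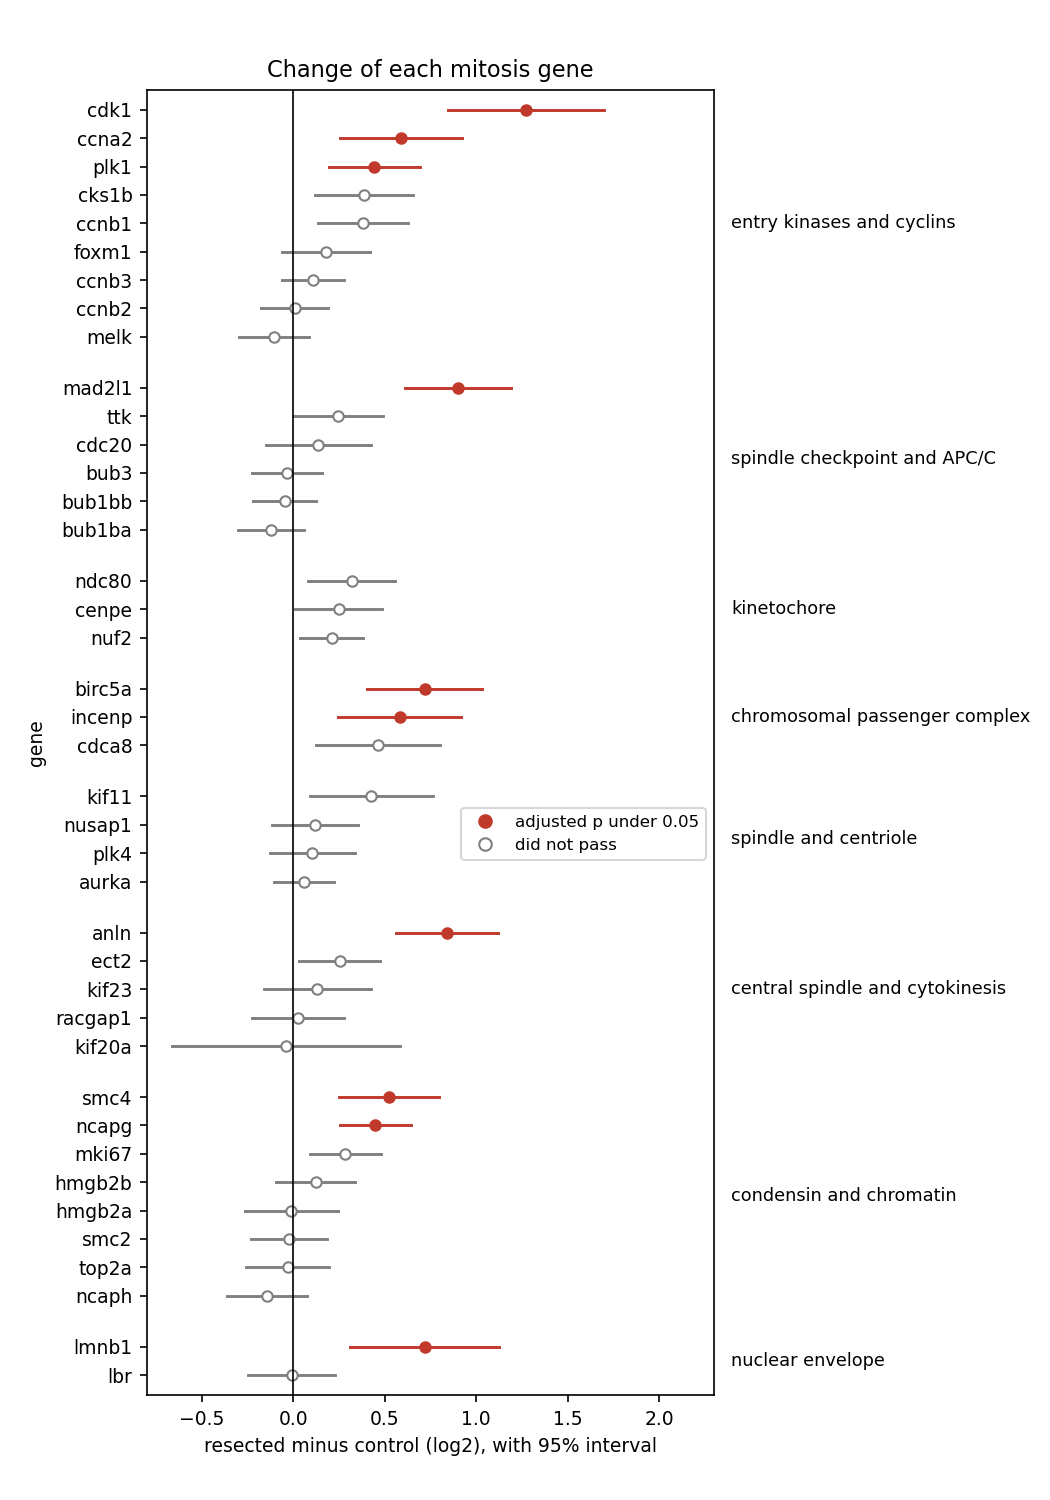
Points give the change of each gene, resected minus control in log2 units, and bars its 95% interval from the limma fit (n = 4 arrays per group); filled points passed an adjusted p of 0.05. The 10 that passed lie between 0.44 and 1.27, and kif20a has the widest interval, from -0.66 to 0.58.

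None of the 4 measured genes of the spindle and centriole passed in limma, and 1, kif11, had an unadjusted p under 0.05. The motor gene kif11, whose product pushes the spindle poles apart, was at 5.47, 5.71, 5.51 and 5.59 in resected ventricles, against 5.16, 5.62, 4.86 and 4.94 in control ventricles. Only control replicate 2 lay inside the resected range. The change was 0.43 ± 0.15 (adjusted p = 0.123, limma), and 0.58 without that array (adjusted p = 0.00814). The Aurora A gene aurka, a spindle pole kinase, averaged 5.92 ± 0.02 in resected and 5.86 ± 0.08 in control ventricles (SD, n = 4), and its difference had a 95% interval of -0.11 to 0.22. For the spindle protein gene nusap1 the brightest probe set gave 0.12 ± 0.11, while the other 2 gave 0.34 ± 0.13 and 0.44 ± 0.12 (adjusted p = 0.141 and 0.0644, limma). The centriole kinase gene plk4 was at 0.10 ± 0.11.

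Of the 5 genes of the central spindle and cytokinesis, anln rose. It encodes anillin, a scaffold that ties actin and myosin together in the contractile ring. Its values were 5.62, 5.65, 5.67 and 5.98 in resected ventricles and 4.82, 5.09, 4.60 and 5.04 in control ventricles, without overlap. The rise was 0.84 ± 0.13, or 1.79-fold (limma adjusted p = 0.00339). Its second, dimmer probe set gave 0.22 ± 0.09 (adjusted p = 0.176), with values of 5.20 to 5.40 in resected and 5.01 to 5.28 in control ventricles. The exchange factor gene ect2, which switches on RhoA at the cleavage site, was at 0.25 ± 0.10 (adjusted p = 0.159). The centralspindlin genes racgap1 and kif23 lay at 0.025 ± 0.11 and 0.13 ± 0.13, and a second probe set of kif23 gave -0.13 ± 0.09. The motor gene kif20a had the widest spread of the 40 genes. It was at 8.76, 9.17, 9.50 and 10.21 in resected ventricles and at 9.24, 9.79, 9.73 and 9.04 in control ventricles, so that the resected values ran past the control values at both ends. Its other probe set averaged 5.90 ± 0.13 in resected and 5.82 ± 0.12 in control ventricles (SD, n = 4), without the spread of the first.

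Condensin is built on the pair Smc2 and Smc4, joined in condensin I by Ncaph and Ncapg. Of these, smc4 and ncapg rose. Values of smc4 were 6.75, 6.75, 6.79 and 6.88 in resected ventricles and 5.87, 6.42, 6.34 and 6.43 in control ventricles. The groups did not overlap, and smc4 rose by 0.52 ± 0.12 (limma adjusted p = 0.0316), a call lost on leaving out control replicate 3 or, in turn, each resected array (0.054 to 0.0811 as adjusted p). For ncapg the values were 5.50, 5.71, 5.64 and 5.79 in resected ventricles, against 5.19, 5.33, 5.13 and 5.20 in control ventricles. These did not overlap, control replicate 2 was again the highest control, and ncapg rose by 0.45 ± 0.09, or 1.36-fold (limma adjusted p = 0.0133). The brightest probe sets of smc2 and ncaph gave -0.025 ± 0.093 and -0.15 ± 0.10. Their dimmest probe sets did not follow these: that of smc2 was at 3.57, 3.54, 3.32 and 3.70 in resected ventricles and at 3.06, 3.27, 3.05 and 3.05 in control ventricles, without overlap, and rose by 0.42 ± 0.10 (limma adjusted p = 0.0294). That of ncaph gave 0.31 ± 0.08 (adjusted p = 0.0548, limma). It averaged 2.76 in resected and 2.45 in control ventricles, near the lowest value on the arrays, 2.01. The remaining probe set of ncaph gave 0.055 ± 0.10 (adjusted p = 0.775, limma).

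The other chromatin genes did not pass. The topoisomerase gene top2a was at 5.76, 5.58, 5.64 and 5.56 in resected ventricles and at 5.47, 5.56, 5.76 and 5.87 in control ventricles. The groups overlapped, the change was -0.030 ± 0.10, and of its 5 probe sets the highest gave 0.25 ± 0.11 (adjusted p = 0.196, limma). The gene mki67 encodes Ki-67, a coat of mitotic chromosomes that is used as a marker of cycling cells. Its brightest probe set read 6.08, 6.19, 6.10 and 6.16 in resected ventricles and 5.71, 6.01, 5.77 and 5.91 in control ventricles. No values overlapped, but the change of 0.28 ± 0.09 did not pass (adjusted p = 0.0797, limma), and passed without control replicate 2 (0.34, adjusted p = 0.0385). The 2 dimmer probe sets of mki67 gave -0.12 ± 0.11 and -0.15 ± 0.10. The genes hmgb2a and hmgb2b, for DNA-bending chromatin proteins, were at -0.010 ± 0.11 and 0.12 ± 0.10.

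In the nuclear envelope, which is taken apart in mitosis and rebuilt after it, the lamin gene lmnb1 rose. Resected ventricles had 7.33, 7.48, 7.19 and 7.24, against 6.21, 7.20, 6.57 and 6.37 in control ventricles. Control replicate 2 reached into the resected range; the other 3 controls lay below it. The rise was 0.72 ± 0.18, or 1.65-fold (limma adjusted p = 0.0434). That call was lost on leaving out any array other than control replicate 2 (0.0711 to 0.13 as adjusted p). It was lost too, at changes of 0.70 and 0.72, under a further quantile normalization (adjusted p = 0.0508) or median centring (0.0502), and on averaging its 2 probe sets (0.47, adjusted p = 0.0662). The gene for the lamin B receptor, lbr, averaged 6.99 ± 0.14 in resected and 7.0 ± 0.16 in control ventricles (SD, n = 4).

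**Figure D3:**
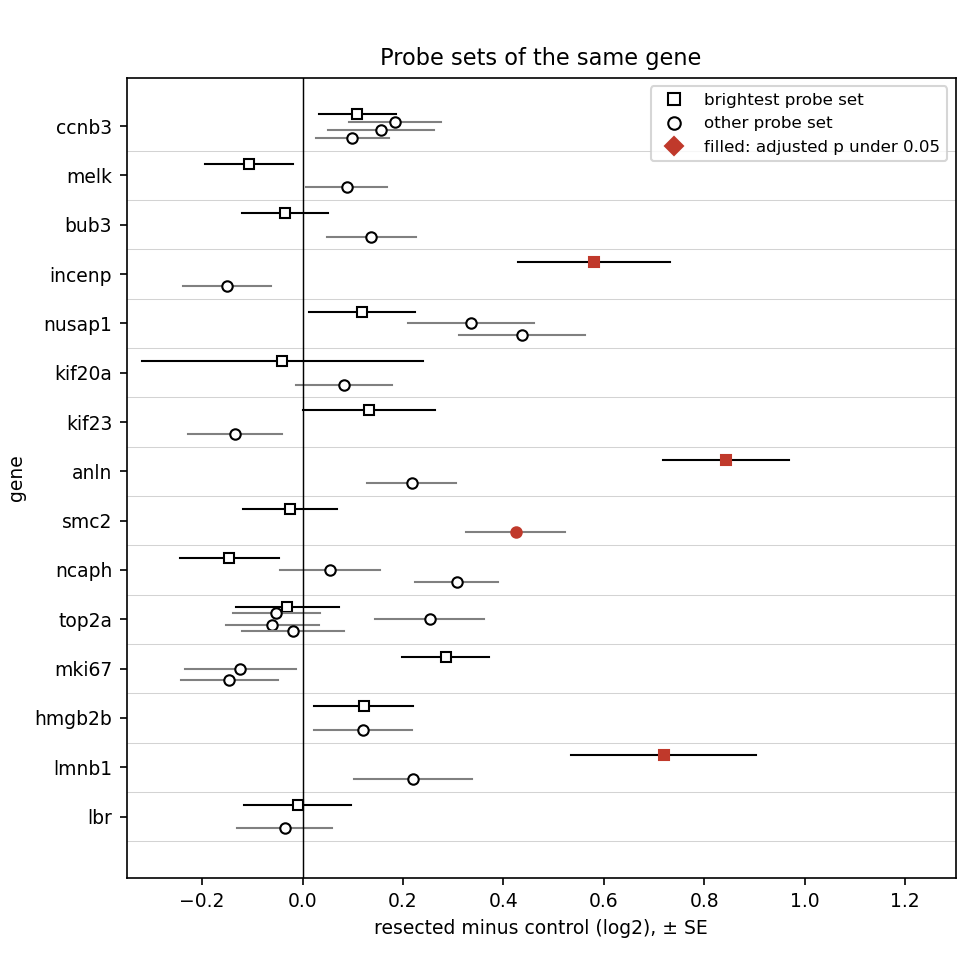
For the 15 measured genes with several probe sets, each point is the change of 1 probe set on the log2 scale (resected minus control), and bars are the SE of the limma fit. Squares mark the brightest probe set, and filled points passed an adjusted p of 0.05; incenp, anln and lmnb1 passed by the brightest, and smc2 by a dimmer one.

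Probe sets of the same gene often differed. Of the 63 probe sets, 11 rose and 0 fell, beside 4.28% and 2.57% of all probe sets. Of the 15 genes with several, all probe sets lay on 1 side of 0 for 6 genes, and in the 4 genes with a call, incenp, anln, smc2 and lmnb1, at least 1 other probe set did not pass. No gene was left out for a low level, and 22 of the 40 had a mean under the median probe set of the array. RMA gives no detection call for such genes. Among the 30 genes that did not pass, the 95% interval of the brightest probe set stayed within -1 and 1 for all 30. It stayed within -0.5 and 0.5 for 24. The other 6 were kif20a, cdca8, kif11, cks1b, ccnb1 and ndc80, for which these arrays do not bound the change as closely. Intervals of dimmer probe sets also reached past 0.5 for nusap1 (up to 0.71) and smc2 (up to 0.64).

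Control replicate 2 was most often the highest control array in these genes. It gave the highest control value for 24 of the 40, or 60%, beside 21.4% of all genes. The mean over the 40 genes, taken from the control mean, was 0.20, 0.29, 0.26 and 0.31 in the resected arrays and -0.09, 0.16, -0.09 and 0.02 in the control arrays. Every resected mean was above every control mean, with control replicate 2 closest. Without it, 15 of the 40 genes rose and 0 fell, against 7.37% and 4.95% of all genes. The 5 that joined were ccnb1, cks1b, cdca8, kif11 and mki67. Control replicate 2 was singled out by these same values, so neither the larger count nor these 5 calls are separate support.

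Markers of some other cell types also rose in resected ventricles, and those of others mostly did not. Of 18 macrophage and other myeloid markers, 6 rose and 0 fell, beside 5.05% and 3.0% of all genes. Without control replicate 2, 14 rose and 0 fell, beside 7.37% and 4.95% of all genes. The counts of the marker lists that follow stand beside the same 5.05% and 3.0%. The mean of the myeloid markers from the control mean lay between 0.49 and 1.04 in resected arrays. In control arrays it was at -0.18, 0.62, -0.40 and -0.05, with replicate 2 the highest control here too. That array was also the highest control for the erythrocyte (0.11) and lymphocyte (0.03) markers. It was not the highest for the fibroblast and epicardial, heart muscle or endothelial and endocardial markers. The myeloid markers with the largest rise were the oxidase subunit gene ncf1 (1.61 ± 0.25), the transcription factor gene spi1b (0.90 ± 0.23), the protease gene mmp9 (0.86 ± 0.14) and alox5ap (0.81 ± 0.14). The brightest members of this list included cd74a, at 12.43 in resected and 12.14 in control ventricles, which did not pass (adjusted p = 0.183, limma). Of 12 erythrocyte markers 7 rose, with means of 0.66 to 1.39 in resected and -0.17 to 0.11 in control arrays, and of 12 fibroblast and epicardial markers 9 rose, with means of 1.52 to 1.70 in resected and -0.09 to 0.07 in control arrays. Of 9 heart muscle markers 2 rose, actn2b and myh7, 7 lay under 0 without passing, and the means were 0.05 to 0.20 in resected and -0.05 to 0.05 in control arrays. Of 8 endothelial and endocardial markers 1 rose, the junction gene cldn5a (0.42 ± 0.08), at 3.90 in resected and 3.48 in control ventricles. Of the 8, 4 lay above 0 and 4 under 0. At an unadjusted p under 0.05 in limma, 2 were higher and 1 lower, kdrl (-0.41 ± 0.15). No lymphocyte marker of 5 passed in limma, and at an unadjusted p under 0.05 there was 1 higher, cd28 (0.30 ± 0.09), and 1 lower, gata3 (-0.36 ± 0.12). As a sign of RNA quality, the 3′ minus the 5′ control probe set of muscle actin was -1.74 to -1.46 in resected and -2.30 to -1.98 in control arrays (exact two-sided permutation p = 0.0286, the smallest that 4 against 4 arrays allow), and that of GAPDH was 0.80 to 1.05 in resected and 0.77 to 1.07 in control arrays (p = 0.771, exact permutation). The part of these cells and of RNA quality in the result was not tested.

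**Figure D4:**
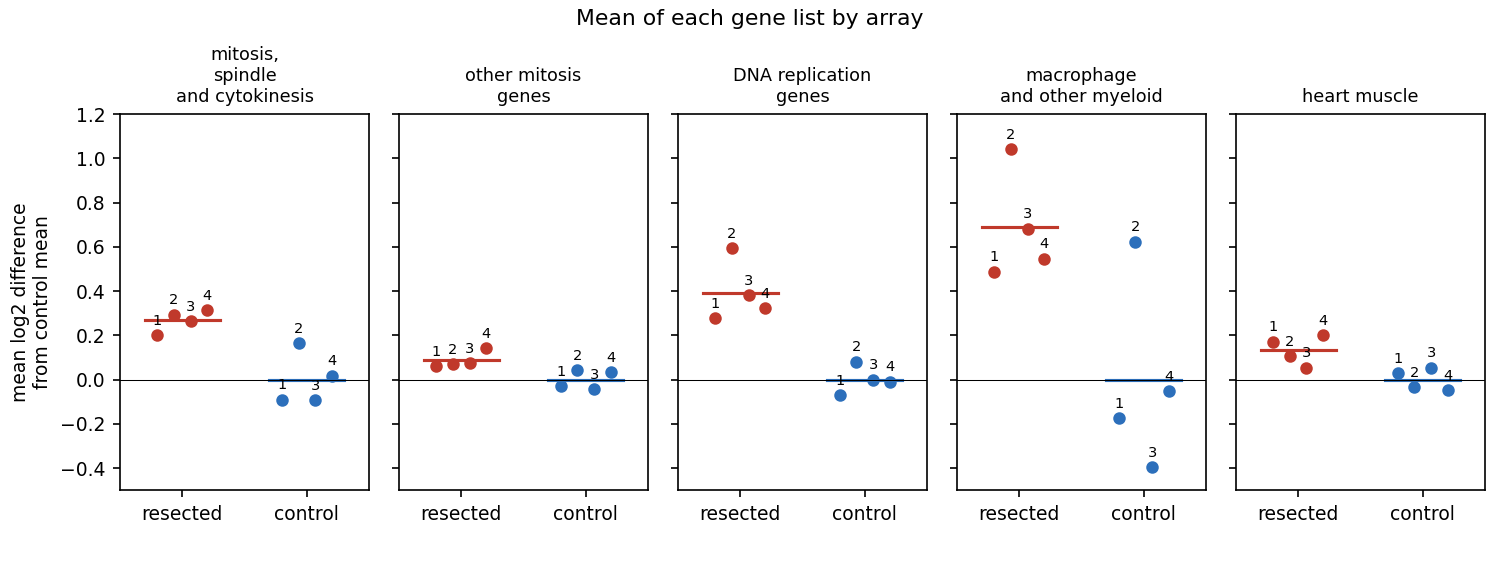
Each panel shows 1 gene list, and each numbered point the mean over its genes in 1 array, in log2 units from the mean of the 4 control arrays, resected left of control; lines are group means. Control replicate 2 is the highest control point for the mitosis genes (0.16) and for the myeloid markers (0.62). It is also the highest for the other mitosis genes (0.04) and the replication genes (0.08), but not for heart muscle (-0.03).

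A list of 141 further genes of mitosis was set beside these, of which 92 were measured. In it 11 genes rose and 3 fell, or 11.96% and 3.26% of the 92, beside 5.05% and 3.0% of all genes, so the share that fell was near that of all genes. The median change was 0.05. The largest increases were in the nuclear import gene kpna2 (0.94 ± 0.23), the cohesin acetyltransferase gene esco2 (0.86 ± 0.20), the central spindle gene prc1b (0.72 ± 0.11) and spc24, the partner of Spc25 in the Ndc80 complex (0.61 ± 0.10), all past the threshold in limma. The genes that fell were lin37, a subunit of a complex that in mammals represses cell cycle genes (-0.79 ± 0.19), fzr1a, an activator of the anaphase-promoting complex (-0.60 ± 0.13), and cdc26, a subunit of that complex (-0.35 ± 0.09). Closest to the threshold without passing were trip13 and mis12, at 0.30 ± 0.09 and 0.36 ± 0.10 (adjusted p = 0.0635 and 0.0643, limma). The 14 calls became 8, 7 and 9 without control replicates 1, 3 and 4, and 4, 9 and 9 without resected replicates 2, 3 and 4. Leaving out an array also changed the count over all probe sets. How far the calls of this list moved with that count was not tested.

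Genes of DNA replication and nucleotide supply, the step before mitosis, gave 20 higher and 0 lower of 53 measured, beside the same 5.05% and 3.0% of all genes, with a median change of 0.32. The thymidylate synthase gene tyms (1.56 ± 0.12), the helicase gene mcm2 (1.29 ± 0.25), uhrf1, which helps copy DNA methylation (1.1 ± 0.23), the dUTPase gene dut (1.02 ± 0.16), the ribonucleotide reductase gene rrm1 (0.93 ± 0.12) and mcm4, of the same helicase as mcm2 (0.91 ± 0.19), led them. The shares that rose, 10 of 40 mitosis genes, 11 of 92 further mitosis genes and 20 of 53 replication genes, are given side by side. Of the further mitosis genes 3 fell, and of the other 2 lists 0. The differences between the lists were not tested. The replication calls became 13 and 11 without control replicates 3 and 4, and 10 and 11 without resected replicates 2 and 3. Here too the count over all probe sets changed with the array left out, and how far these calls moved with it was not tested.

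**Figure D5:**
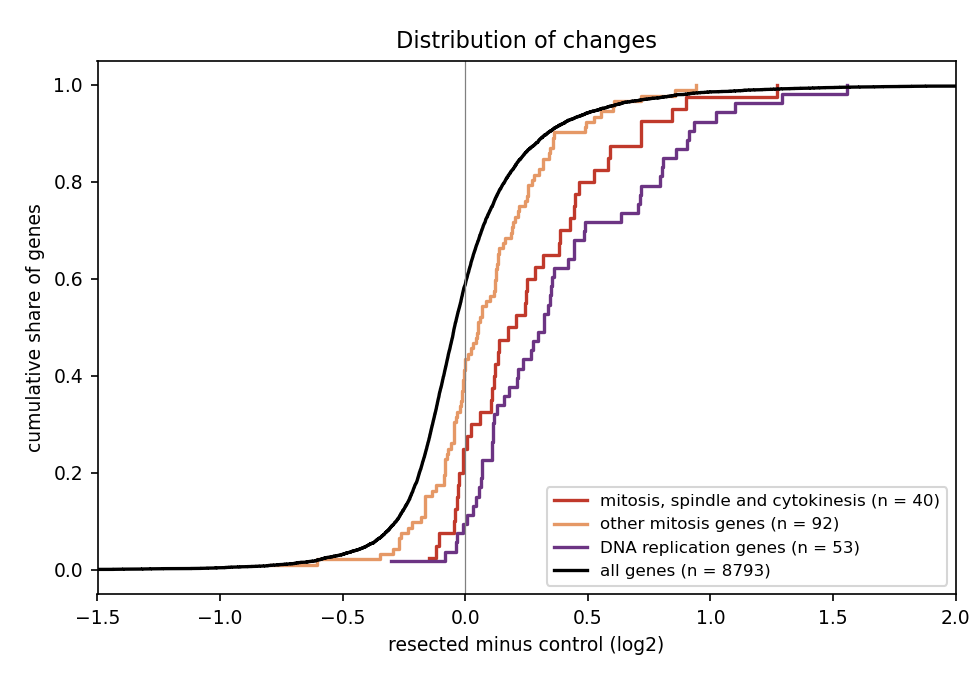
Cumulative share of genes (vertical axis) against change, resected minus control in log2 units (horizontal axis), for the 40 mitosis genes, 92 further mitosis genes, 53 replication genes and all 8793 genes. The medians are 0.19, 0.05, 0.32 and -0.04.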

How the data were processed

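The deposited table holds log2 values of 15617 probe sets for 8 arrays, 1 per pool of zebrafish ventricles. Per the submitters' processing notes the authors used affy and RMA, a background correction, quantile normalization and probe summary, with versions not given in the sources used here. Each column was matched to its sample by accession. After 115 manufacturer controls were left out, 15502 probe sets were tested by a two-sided linear model without replicate term (lmFit, then eBayes, of limma 3.58.1 under R 4.3.3), with Benjamini-Hochberg adjustment over all of them and a threshold of 0.05. A single symbol from the platform annotation, updated by Entrez identifier through a gene table of GRCz12tu, named 10795 probe sets; 135 carried several symbols and 4572 had none. A gene is read from its brightest probe set, by the mean of the 8 arrays. All measured members may be named. Of the other pathway lists, up to 6 changed genes with the largest change and the 2 smallest p that did not pass are named, and up to 4 per marker list. The gene cdc26 and the markers cd74a and kdrl were named after their values were seen. Members and lists were chosen with earlier results of these data known, and overlap lists tested then. Arrays give no count depth, so their number limits the precision. The fit was tested on simulated data. Alternatives were a replicate block, other variance priors, no moderation, array weights, further normalization, filters on dim probe sets, other probe set choices and leaving out each array. Over all probe sets, replicate numbers did not consistently pair the arrays, and pairing within the mitosis genes alone was not tested. No genome build is named for the array, so no coordinates are given.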

Additional observations from a re-analysis of the deposited data

Results flagged for a closer look

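In 5 of 80 sets of 4 arrays, taken over the 40 mitosis genes and both groups, 1 array stood apart from the other 3 by Dixon's test, and chance alone marks about 1 in 20. In resected ventricles, anln was highest in replicate 4, at 5.98 beside 5.67 in the next array, and plk4 was lowest in replicate 4, at 6.01 beside 6.23. Resected replicate 1 was lowest for cenpe, at 5.82 beside 5.96, and for ndc80, at 4.29 beside 4.46. In control ventricles, bub1bb was highest in replicate 3, at 4.61 beside 4.49.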

How the results depend on the processing

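Of the 10 mitosis genes called, mad2l1 kept its call under all 19 alternatives, anln and ncapg under the 18 that tested them (the filter at the 50th percentile left both out), and these 3 and cdk1 with each array left out; cdk1 missed without variance moderation (adjusted p = 0.0611, limma). Over the alternatives the highest adjusted p in limma was 0.048 for mad2l1, 0.0496 for anln and 0.0486 for ncapg, just under the threshold. No called gene changed sign. Without moderation the counts were 3 mitosis, 4 further mitosis and 5 replication genes and 299 probe sets, beside 10, 14, 20 and 1062. Above the 50th percentile of the level 18 of the 40 mitosis genes were tested, and each kept its sign and its call or lack of one. Of these 5 were called, and the filter left out cdk1, ccna2, incenp, anln and ncapg. At that filter 4 further mitosis genes were called. The share of all probe sets called at that filter is not given here, so neither count is set against it. With 1 array left out, the counts ran from 4 to 15 mitosis, 4 to 15 further mitosis and 10 to 21 replication genes, and from 545 to 1608 probe sets. Over all probe sets the replicate numbers did not consistently pair the arrays (correlation of same-numbered deviations -0.16 to 0.14, of other pairs -0.22 to 0.30). Pairing within the mitosis genes alone was not tested. The SE of cdk1 was 0.19 without and 0.11 with a replicate block, and that of ccnb2 0.082 and 0.095. With the replicate block 9 mitosis, 11 further mitosis and 18 replication genes and 1026 probe sets were called, and plk1 was the mitosis gene lost. With array weights ccna2 missed (0.51, adjusted p = 0.0678). Of the genes that did not pass, 10 turned in sign under some setting. Averaging the probe sets of each gene turned bub3 (0.051), kif20a (0.021), kif23 (-0.00094), smc2 (0.20), ncaph (0.072) and top2a (0.018), and quantile normalization turned smc2 (0.0052). With 1 array left out the values ran from -0.070 to 0.060 for lbr, -0.031 to 0.045 for ccnb2, -0.31 to 0.18 for kif20a, -0.084 to 0.090 for hmgb2a, -0.073 to 0.11 for racgap1, -0.096 to 0.037 for top2a, -0.10 to 0.029 for smc2 and -0.065 to 0.020 for bub3. Of the 40 genes, 22 lay under the median level of the array, where signal is low. Among the genes that turned, ccnb2, top2a, smc2 and ncaph lay under that median. The others that turned, lbr, kif20a, hmgb2a, racgap1, kif23 and bub3, lay above it. The cause of the turns was not tested.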
